A study of Mus musculus with 15 samples.

Results

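The genes followed here encode 7 transcription factors that set or keep the identity of pancreatic acinar cells, namely Ptf1a, Rbpjl, Bhlha15, Nr5a2, Gata4, Gata6 and Foxa2. They were chosen by name, and all 7 were found among the 49585 genes listed for the HC and KMC experiments and the 15175 listed for the MC experiment. Their values were read in all 15 RNA-Seq libraries of C57BL/6 pancreas, and each group was compared with its own control and set against the enzyme share of counts, which is the percentage of all counts that fall on 30 genes of digestive enzymes and other secreted acinar products.

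The study asked how the kinase HPK1 acts in acinar cells, and expressed HPK1 or its kinase-dead form M46 with a tamoxifen-inducible Cre driven by the elastase I promoter, so that expression of the transgene should be limited to acinar cells. The MC experiment had 3 MC libraries and 3 controls labelled B control, all from mice of 2 months. The HC experiment had 3 libraries labelled HPK1/B (HC) and 2 controls labelled WT, all from mice of 4 months. The third experiment had 2 KC libraries, from mice of 15 months, and 2 KMC libraries, from mice of 9 months that carried M46 in addition to the KC genotype. Each library pooled the pancreata of 3 mice. The design text gives cerulein (a peptide used to inflame the pancreas by driving acinar secretion too hard) for MC, HC and their controls, whereas the methods state that littermate controls received PBS. No cerulein treatment of the KC and KMC mice used for these libraries was stated. The labels call the KC and KMC tissue pancreas, and the study's methods call it PDAC (pancreatic ductal adenocarcinoma).

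Acinar cells make and store digestive enzymes, and a small set of factors keeps their genes on. PTF1A, a basic helix-loop-helix (bHLH) protein, pairs with RBPJL in the PTF1 complex, which binds the promoters of enzyme genes at an E-box next to a TC box, and RBPJL is the acinar form of the more widely expressed RBPJ. BHLHA15, also called MIST1, is a bHLH protein that enlarges the secretory apparatus, and NR5A2 is a nuclear receptor that works with PTF1 at enzyme genes. GATA4 and GATA6 are zinc finger proteins and FOXA2 is a forkhead protein, and these 3 are also known from ducts, islets, stomach or intestine. Loss of such factors is known to accompany acinar-to-ductal metaplasia, in which acinar cells take on features of ducts.

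The promoter windows of 2 acinar factors and of 2 enzyme genes are shown because PTF1 is known to act on genes of both kinds. They come from RefSeq (GRCm38.p6), which had a window for 5 of the 7 factors and 24 of the 30 enzyme genes in the table used. Each run is written 5′ to 3′ on the strand of the gene, ends just before the annotated gene, and has capitals for CANNTG (the E-box) and for TTTCCC or its complement GGGAAA (the TC box). The windows are chr2:164402944-164403140 on the plus strand for Rbpjl, chr5:144190036-144190285 on the plus strand for Bhlha15, chr2:28563404-28563653 on the minus strand for Cel and chr15:100687922-100688170 on the minus strand for Cela1.
Rbpjl: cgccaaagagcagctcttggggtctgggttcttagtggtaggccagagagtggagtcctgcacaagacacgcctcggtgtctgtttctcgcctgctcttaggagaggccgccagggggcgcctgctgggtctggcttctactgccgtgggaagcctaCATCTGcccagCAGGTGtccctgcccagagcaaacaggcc
Bhlha15: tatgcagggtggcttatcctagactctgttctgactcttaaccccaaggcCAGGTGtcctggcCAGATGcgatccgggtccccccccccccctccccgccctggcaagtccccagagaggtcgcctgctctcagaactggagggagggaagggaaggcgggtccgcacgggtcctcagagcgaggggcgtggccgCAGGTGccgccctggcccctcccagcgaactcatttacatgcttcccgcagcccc
Cel: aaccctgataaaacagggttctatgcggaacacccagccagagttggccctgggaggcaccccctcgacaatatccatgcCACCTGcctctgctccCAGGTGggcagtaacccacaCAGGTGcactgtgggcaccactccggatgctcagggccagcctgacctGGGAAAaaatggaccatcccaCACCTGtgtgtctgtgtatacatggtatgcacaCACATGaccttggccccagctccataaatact
Cela1: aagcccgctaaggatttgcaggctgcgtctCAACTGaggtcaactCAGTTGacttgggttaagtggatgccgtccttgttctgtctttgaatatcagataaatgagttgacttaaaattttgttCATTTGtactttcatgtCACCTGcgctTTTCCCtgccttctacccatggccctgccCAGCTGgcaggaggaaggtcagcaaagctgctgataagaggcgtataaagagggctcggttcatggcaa

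In the 250 bases before the start, searched on both strands, CANNTG was found in 4 of 5 factors and 19 of 24 enzyme genes, and in 66.2% of all 32851 windows. TTTCCC was found in 0 of 5 factors and 8 of 24 enzyme genes, against 21.9% of all windows. Both motifs with 5 or 15 bases between them were found in Cel alone among these genes, and in 0.216% of all windows. In Cela1, an E-box and a TC box had 4 bases between them and so were not counted. Only exact letters were counted. The Rbpjl run has TGGGAA, which shares GGGAA with GGGAAA, with 5 bases between it and the E-box CATCTG, and this was not counted either. AGATAA is a motif that GATA4 and its relatives bind. It was found in 3 of 5 factors (Foxa2, Nr5a2 and Rbpjl) and 7 of 24 enzyme genes, against 9.99% of all windows. The match of Rbpjl lies 31 bases before the RefSeq start, in the 53 bases that the printed run leaves out because they fall inside the annotated gene. The motif searched for NR5A2 was found in 0 of 5 factors and 2 of 24 enzyme genes (Cel and Klk1), against 1.33% of all windows. The motif searched for forkhead proteins was found in 0 of 5 factors and 0 of 24 enzyme genes, against 3.17% of all windows. Factors and enzymes were counted per gene and the background per window, so a gene with several windows would have more chances of a match. A match describes the letters and is not evidence of binding.

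The genes lie on 5 chromosomes of GRCm38, and counts cover their annotated exons. Ptf1a (ENSMUSG00000026735) is at chr2:19445663-19447501, Rbpjl (ENSMUSG00000017007) at chr2:164403141-164415448 and Bhlha15 (ENSMUSG00000052271) at chr5:144190286-144194441. Nr5a2 (ENSMUSG00000026398) is at chr1:136842571-136960448, Gata4 (ENSMUSG00000021944) at chr14:63198922-63271692, Gata6 (ENSMUSG00000005836) at chr18:11052064-11085635 and Foxa2 (ENSMUSG00000037025) at chr2:148042877-148046969. Some of them overlap a gene of the other strand, and whether counting used the strand was not stated. Counts listed for Matn4 came to 4.73 to 30.6% of those of Rbpjl, counts for 1010001N08Rik to 4.49 to 11.8% of those of Gata6, and counts for Ptf1aos to 0 to 1.62% of those of Ptf1a, so Rbpjl and Gata6 values are less certain.

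The libraries held 29766575 to 38745907 counts, and 3 counts corresponded to 0.0774 to 0.101 counts per 1000000 counts (CPM). The fewest counts of any factor in a library were 67, for Ptf1a. Levels are CPM scaled by TMM, a method that sets the bulk of genes equal between libraries of a table, unless another scale is named. Map4k1, which encodes HPK1, was at 6.79 to 8.32 CPM in MC and at 2.34 to 4.14 in its controls, but at 5.05 to 7.93 in the libraries labelled HC and at 11.5 to 15.4 in their controls, against the direction of the label. Whether reads of the transgenes were assigned to Map4k1 was not stated. By Xist and Ddx3y, 1 of 3 HC libraries (replicate 3) and both KC libraries were of the male type, while both controls of HC and both KMC libraries were of the female type. Genotype, age and sex therefore cannot be told apart between KMC and KC. Xist was not listed in the MC table.

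**Figure D1:**
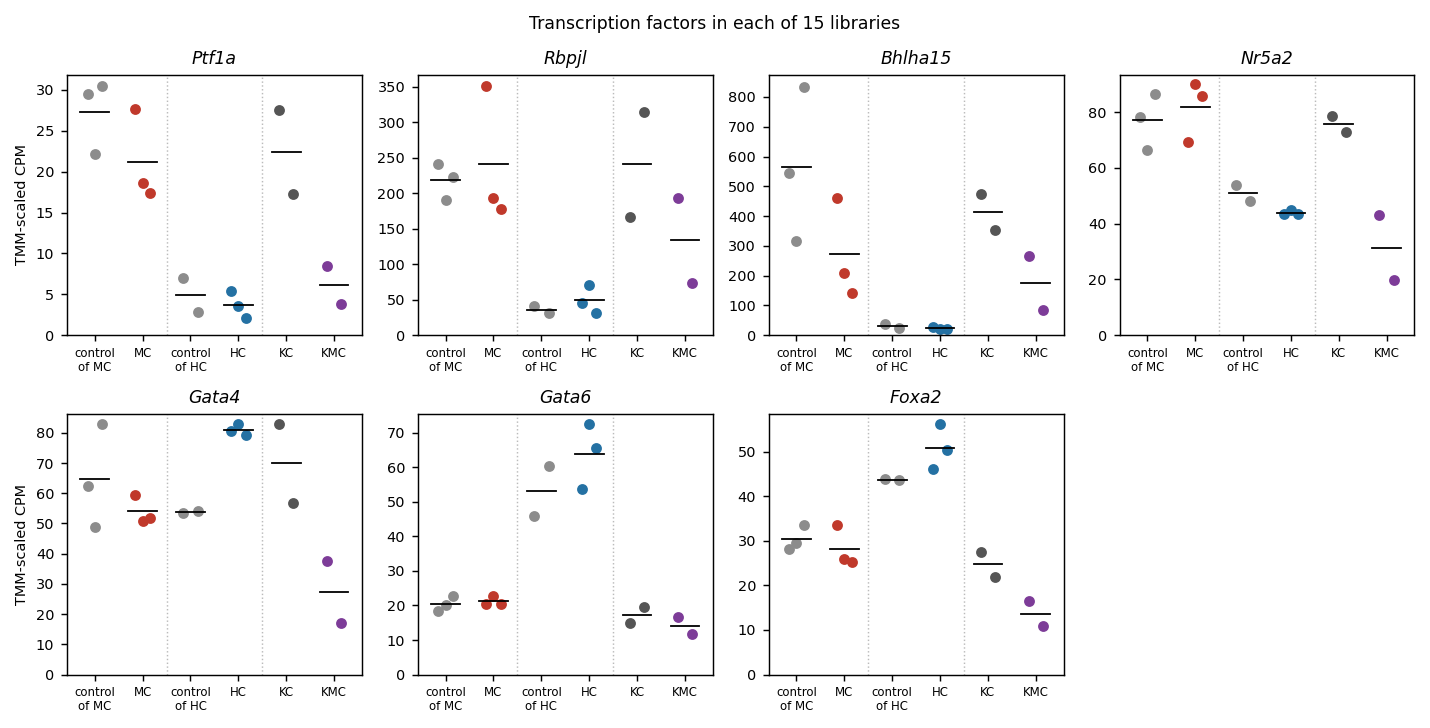
TMM-scaled CPM (vertical axis, linear from 0) of each of 7 transcription factors in 15 libraries, with 1 point per library, a line at the group mean and dotted lines between tables that were scaled separately. Ptf1a lay between 17.3 and 30.5 in the MC experiment and between 2.12 and 7.0 in the HC experiment, and Gata4 was higher in each of 3 libraries labelled HC than in both of their controls.

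In MC pancreata, no difference of the 7 factors from control passed the test, and Bhlha15 and Ptf1a had the lowest means relative to control. No factor had an adjusted p of 0.05 or less in edgeR's quasi-likelihood test, where the smallest was 0.362, or in DESeq2. Nor did edgeR call any of the 13902 genes tested (0%), although 14.7% of them had an unadjusted p under 0.05, against 0 of 7 factors. The groups overlapped for every factor, whereas 20.7% of all genes did not overlap. The median log2 fold change was -0.11 over the factors and -0.02 over all genes.

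Bhlha15 had the largest difference of the 7 in MC. It was at 461, 209 and 143 CPM in MC replicates 1, 2 and 3 and at 545, 315 and 835 CPM in controls 1, 2 and 3. MC 1 lay within the range of the controls and the other two lay below all of them. The means were 271 ± 168 (SD, n = 3) and 565 ± 260 (SD, n = 3), and the log2 fold change was -1.06 (SE 0.49, adjusted p = 0.362). Its sign was negative under all 14 alternative settings, but its size rested on single libraries, with -1.68 without MC 1 and -0.65 without control 3.

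The subunits of the PTF1 complex overlapped with control. Ptf1a was at 27.7, 18.6 and 17.3 CPM in MC and at 29.4, 22.1 and 30.5 CPM in controls, so that MC 2 and MC 3 lay below the lowest control. Its log2 fold change was -0.37 (SE 0.21, adjusted p = 0.424). Rbpjl was at 351, 193 and 178 CPM in MC and at 242, 191 and 223 CPM in controls, with the highest and the lowest value both in MC, and its log2 fold change was 0.14 (SE 0.27, adjusted p = 0.805). Without MC 1, which had the highest Rbpjl level, the difference was -0.22.

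Nr5a2, Gata4, Gata6 and Foxa2 had smaller differences than Bhlha15. Nr5a2 was at 69.4, 90.0 and 85.8 CPM in MC and at 78.2, 66.3 and 86.6 CPM in controls (log2 fold change 0.09, SE 0.15, adjusted p = 0.791). Gata4 was at 59.5, 50.8 and 51.8 CPM in MC and at 62.3, 49.0 and 82.8 CPM in controls (-0.26, SE 0.19, adjusted p = 0.513). These values interleaved, and the top Gata4 value was that of control 3. Gata6 lay between 20.4 and 22.8 CPM in MC and between 18.4 and 22.8 in controls (0.05, SE 0.13), and Foxa2 between 25.3 and 33.6 in MC and between 28.2 and 33.5 in controls (-0.11, SE 0.15). The signs of these 4 differences were not stable: library size alone in place of TMM turned those of Gata4 and Foxa2, and leaving out 1 library turned those of Nr5a2 and Gata6.

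The enzyme share was 46.8, 37.9 and 38.4% of counts in MC and 51.0, 42.6 and 56.5% in controls. The difference of the means was -8.99 percentage points, with overlapping groups (exact permutation test, two-sided, p = 0.2, where the smallest p that 3 against 3 allows is 0.1). Without control 3 it was -5.76 points and without control 2 it was -12.7. The 95% Wilson binomial interval of the MC 1 share was 46.78 to 46.82%, which covers counting error only. Of the 29 enzyme genes tested, 25 were lower in MC, none with an adjusted p of 0.05 or less in edgeR (2 higher and 2 lower at an unadjusted p under 0.05), and the median log2 fold change was -0.55. Ctrb1 (a chymotrypsinogen) was at 107358 ± 21913 CPM in MC and 141137 ± 42547 in controls. Cela1 (an elastase) was at 27707 ± 15313 and 50343 ± 17966, and Cel (carboxyl ester lipase) at 20085 ± 7848 and 36753 ± 14508 (SD, n = 3 each, adjusted p = 0.755, 0.470 and 0.427).

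Set against the enzymes, the factors other than Bhlha15 had higher means in MC than in control, but so did the typical gene. Taken per 1000000 enzyme counts, 6 of 7 factors had a higher mean in MC, with a median log2 difference of 0.46, but the median over all genes was 0.56. The groups did not overlap for Rbpjl alone, at 709, 635 and 558 in MC and at 420, 505 and 278 in controls, and 10.8% of all genes were higher without overlap on this scale. Bhlha15 was at 931, 686 and 449 per 1000000 enzyme counts in MC and at 947, 835 and 1042 in controls, a log2 difference of -0.45 with overlapping groups.

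Across the 6 libraries of the MC experiment, Bhlha15 followed the enzyme share most closely of the 7 factors. Levels were taken here as log2 counts per 1000000 non-enzyme counts, so that the enzymes do not enter the divisor. Pearson's r was 0.948 for Bhlha15 (exact permutation p = 0.00556, adjusted over the 7 factors p = 0.0389), and Spearman's rho was 0.943 (exact permutation p = 0.0167, adjusted p = 0.117). Without control 3 and MC 2, the libraries farthest from the median share, r was 0.942. Ptf1a had an r of 0.862 (rho 0.886, exact permutation p = 0.0167 and 0.0333, adjusted p = 0.0583 and 0.117) and Gata4 an r of 0.880 (rho 0.771, exact permutation p = 0.0278 and 0.103, adjusted p = 0.0648 and 0.180), and without those libraries r was 0.967 and 0.808. Gata6 went the other way, with an r of -0.752 (rho -0.829, exact permutation p = 0.0639 and 0.0583, adjusted p = 0.112 and 0.136) and -0.950 without them. The remaining 3 factors gave r of 0.222 for Foxa2, 0.170 for Rbpjl and -0.569 for Nr5a2 (exact permutation p = 0.642, 0.728 and 0.233, adjusted p = 0.728, 0.728 and 0.327; rho 0.257, 0.143 and -0.543, exact permutation p = 0.658, 0.803 and 0.297, adjusted p = 0.768, 0.803 and 0.416). On TMM-scaled CPM every factor had a higher r, so the relations depend on the scale. There r was -0.05 for Gata6, 0.755 for Foxa2, 0.963 for Bhlha15, 0.944 for Ptf1a and 0.926 for Gata4 (exact permutation, adjusted p = 0.0194, 0.0194 and 0.0454 for the last 3). The TMM factors fell as the share rose, from 1.25 in MC 2 to 0.706 in control 3. This scale thus carries a trend with the share of its own, and these r values are not separate evidence. With 3 libraries in each group, too few for a correlation, none was computed within a group. The permutation treats MC and control libraries as exchangeable. Since the share and Bhlha15 both had lower means in MC, its r and p also carry the group difference. Values of r were not computed for all genes, so how common such values are is not known. In the controls Bhlha15 was at 620, 987 and 1353 per 1000000 non-enzyme counts where the share was 42.6, 51.0 and 56.5%, and in MC it was at 419, 280 and 819 where the share was 37.9, 38.4 and 46.8%. In bulk tissue, fewer acinar cells and less RNA per acinar cell cannot be told apart.

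**Figure D2:**
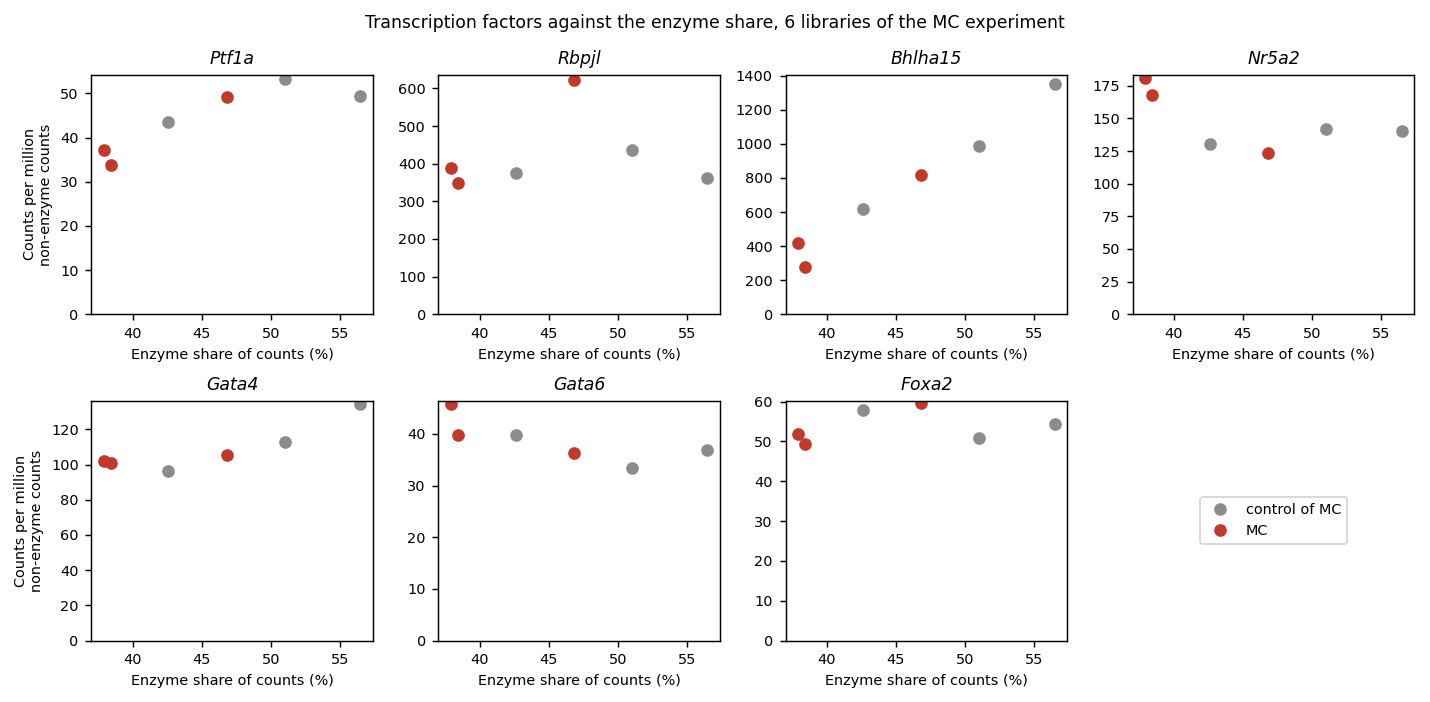
Counts per 1000000 non-enzyme counts of each factor (vertical axis, from 0) against the enzyme share of counts in percent (horizontal axis) in 3 MC libraries and 3 controls, 1 point per library. Bhlha15 was at 280 where the share was 38.4% and at 1353 where it was 56.5%, while Rbpjl, Nr5a2 and Foxa2 showed no such order.

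Markers of other cells moved in part with these libraries. The summed level of 10 leukocyte genes was 682 to 1107 per 1000000 non-enzyme counts in MC and 230 to 739 in controls, with all 10 genes higher on average, and that of 10 fibroblast genes was 4383 to 6473 and 1895 to 5701. The 12 ductal genes came to 5300 to 7948 in MC and 4922 to 8556 in controls, and the 12 islet genes to 1806 to 3190 and 1709 to 4344. The gut genes (6 of 12 listed) came to 529 to 977 and 607 to 1285, and the 6 mesothelial genes to 63.5 to 130 and 41.2 to 86.0. The gut sum hides opposite changes, as 4 of its 6 genes were higher and 2 lower in MC. The 4 higher ones had an unadjusted p under 0.05 (edgeR), against 14.7% of all genes, and the smallest adjusted p was 0.113. Their part in the levels of the factors was not tested.

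Of 23 tested genes that work with the factors (bHLH partners and inhibitors, corepressors, other endodermal factors), 16 were higher and 7 lower in MC, none with an adjusted p of 0.05 or less in edgeR (4 higher and 0 lower at an unadjusted p under 0.05). The smallest p values belonged to Hes1, a Notch target, Id3, an inhibitor of bHLH proteins, and Nr0b2, a corepressor that binds NR5A2. Hes1 was at 22.8 ± 3.24 CPM in MC and 12.6 ± 3.48 in controls, Id3 at 12.9 ± 0.597 and 8.60 ± 1.73, and Nr0b2 at 13.1 ± 5.66 and 5.83 ± 3.12 (SD, n = 3 each, adjusted p = 0.170, 0.223 and 0.302). The 4 listed targets of BHLHA15 had lower means in MC, also with none past the threshold and 0 at an unadjusted p under 0.05. Atp2c2, a calcium pump of the Golgi, was at 6.24 ± 3.84 and 16.8 ± 11.4 CPM (adjusted p = 0.340), and Rab3d and Rab26, small GTPases of secretory granules, had adjusted p values of 0.530 and 0.582.

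In the libraries labelled HC, Gata4 was higher than in control, and Ptf1a, Rbpjl and Bhlha15 did not pass the test. Gata4 was at 80.7, 82.8 and 79.4 CPM in HC and at 53.4 and 54.3 CPM in controls, so that every HC library lay above both controls and the values within a group were close. The means were 81.0 ± 1.74 (SD, n = 3) and 53.8 ± 0.570 (SD, n = 2), and the log2 fold change was 0.59 (SE 0.09, adjusted p = 0.0499, edgeR). It was 1 of 7 factors to pass, where 0.739% of the 18407 genes tested did, and 0.565% were also changed by at least 1 on the log2 scale, which no factor was. The adjusted p was just under the threshold and passed in 4 of 14 alternative settings, with a range from 4.62e-05 (DESeq2) to 0.810 (a single fit over the 9 libraries outside the MC experiment). The log2 fold change lay between 0.44 and 0.60 in all of them, and was 0.59 (adjusted p = 0.156) without the male-type library HC 3.

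Most of the tested markers of stomach and intestine moved with Gata4 in these libraries. The summed level of 12 genes of stomach and intestine was 9035, 9270 and 8974 per 1000000 non-enzyme counts in HC 1, 2 and 3 and 3727 and 2104 in both controls. Of the 9 of them that were tested, 7 were higher and 2 lower, none past an adjusted p of 0.05 in edgeR and 7 with an unadjusted p under 0.05. These 7 were the stomach genes Gkn1, Gkn2, Muc5ac, Tff1 and Tff2 and the intestinal genes Vil1 and Fabp2, each higher in every HC library than in both controls. The 2 lower ones were Muc6 (log2 fold change -0.15), with overlapping groups, and Lgr5 (-0.64), lower in every HC library than in both controls. Gkn1 was at 2704 ± 319 CPM in HC and 501 ± 253 in controls, and Vil1 at 239 ± 13.5 and 138 ± 21.2 (adjusted p = 0.0522 and 0.0614). Fabp2 was at 1.5 ± 0.293 and 0.671 ± 0.137 CPM (adjusted p = 0.191). The intestinal factors Cdx1 and Cdx2 were at 0 counts in HC 2 and in control 1, and Cdx1 also in HC 3. The 12 ductal genes came to 9407 to 11644 per 1000000 non-enzyme counts in HC and 8026 to 8465 in controls, and the 12 islet genes to 3757 to 6118 and 3213 to 3524, both higher without overlap. Of the ductal genes 10 were higher and 2 lower, and 1 rose past the threshold, Tspan8, at 438 ± 37.0 CPM in HC and 212 ± 19.8 in controls (adjusted p = 0.0449). Leukocyte genes came to 461 to 635 and 853 to 1243, and fibroblast genes to 6600 to 12913 and 12967 to 14689, both lower without overlap. The mesothelial genes came to 157 to 448 and 143 to 326. GATA4 is also known from stomach epithelium, and the part of these cells in the Gata4 level was not tested.

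Gata6 and Foxa2, of the same endodermal group, had higher means with smaller differences. Gata6 was at 53.7, 72.5 and 65.7 CPM in HC and at 46 and 60.5 CPM in controls, with overlapping groups (0.26, SE 0.17, adjusted p = 0.517). Foxa2 was at 46.1, 56.3 and 50.3 CPM in HC and at 43.8 and 43.6 CPM in controls (0.22, SE 0.11, adjusted p = 0.407). Every HC library lay above both controls for Foxa2, as for Gata4, and 17.5% of all genes were higher in this way. Nr5a2 was the reverse, at 43.5, 44.8 and 43.5 CPM in HC and at 53.7 and 48.3 CPM in controls (-0.21, SE 0.09, adjusted p = 0.338). It was 1 of 7 factors that were lower without overlap, and 16.1% of all genes were. An unadjusted p under 0.05 with a higher level was found for 1 of 7 factors, Gata4, and for 8.39% of all genes.

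Ptf1a, Rbpjl and Bhlha15 were low in both groups of the HC experiment and overlapped between them. Ptf1a was at 5.46, 3.53 and 2.12 CPM in HC and at 7.0 and 2.82 CPM in controls (-0.40, SE 0.51, adjusted p = 0.764), and the sign turned to 0.40 without control 1. Rbpjl was at 45.8, 71.1 and 31.8 CPM in HC and at 41.2 and 30.9 CPM in controls (0.46, SE 0.33, adjusted p = 0.560). Bhlha15 was at 26.9, 21.5 and 22.2 CPM in HC and at 36.5 and 24.0 CPM in controls (-0.36, SE 0.20, adjusted p = 0.446). Without control 1 the Bhlha15 difference was -0.03, and without HC 2 that of Rbpjl was 0.11. HC 1 had the highest Ptf1a and Bhlha15 of the libraries labelled HC, and HC 2 the highest Rbpjl. The median log2 fold change over the 7 factors was 0.22, against -0.00112 over all genes.

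The enzyme share was 6.90, 9.08 and 5.80% in HC and 8.75 and 6.94% in controls, a difference of -0.58 percentage points (exact permutation test, two-sided, p = 0.8, where the smallest p for 3 against 2 is 0.2). Without HC 3 the difference was 0.15 points, and without control 1 it was 0.32. Taken per 1000000 enzyme counts, Gata4 was at 1161, 903 and 1355 in HC and at 606 and 807 in controls, and Rbpjl was at 660, 775 and 542 in HC and at 467 and 459 in controls. These 2 factors were higher without overlap, as were 11.2% of all genes. Of 30 enzyme genes, 11 were higher and 19 lower, none past the threshold in edgeR (1 higher and 0 lower at an unadjusted p under 0.05), with a median log2 fold change of -0.09. Ctrb1 was at 26826 ± 5722 CPM in HC and 27606 ± 5851 in controls, Cela1 at 581 ± 181 and 478 ± 77.9, and Cel at 7484 ± 1771 and 9048 ± 1754.

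Of the 25 genes that work with the factors, 14 were higher and 11 lower in HC, none with an adjusted p of 0.05 or less in edgeR (5 higher and 1 lower at an unadjusted p under 0.05). The smallest p values were those of Hnf4g, an endodermal nuclear receptor, at 7.39 ± 1.54 CPM in HC and 3.28 ± 0.149 in controls, of Pdx1, a factor of pancreas and duodenum, at 33.4 ± 1.43 and 23.9 ± 0.449, and of Mecom, at 136 ± 19.6 and 84.2 ± 18.2 (adjusted p = 0.101, 0.109 and 0.161). Among the 4 targets of BHLHA15, 1 rose. Atp2c2 was at 14.5 ± 2.91 CPM in HC (SD, n = 3) and 4.55 ± 0.514 in controls (SD, n = 2), a log2 fold change of 1.67 (SE 0.22, adjusted p = 0.0449), while Bhlha15 itself had a lower mean in HC. The other 3 were Gjb1, Rab3d and Rab26, with log2 differences of 1.27, 0.37 and -0.02 that did not pass (adjusted p = 0.0553, 0.243 and 0.980).

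**Figure D3:**
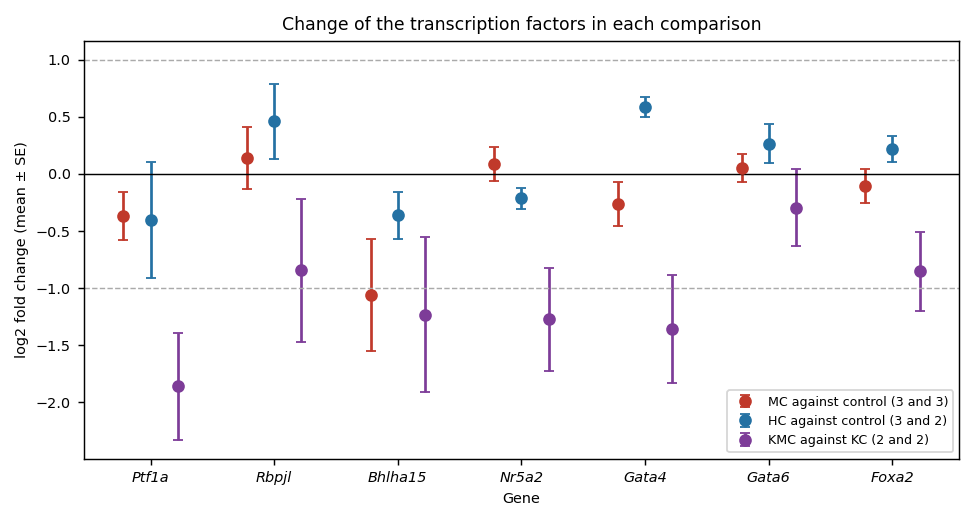
Log2 fold change of each factor (vertical axis, point with SE from edgeR) in the 3 comparisons, with dashed lines at a change of 1 in either direction. The values of MC and HC lie between -1.06 and 0.59, and the 7 values of KMC against KC are all below 0, from -1.86 to -0.29.

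The difference between the MC and HC log2 fold changes was tested in 1 model, each taken against its own controls. Age, library kit, control genotype and tissue composition also differed between these experiments, so transgene and experiment cannot be told apart. None of the 7 factors passed an adjusted p of 0.05, whereas 2.49% of the 14884 genes tested did, and 1 of 7 had an unadjusted p under 0.05, against 20.8% of all genes. Gata4 came nearest, with an MC fold change lower than that of HC by 0.86 on the log2 scale (SE 0.25, adjusted p = 0.0895, edgeR). For the other 6 factors the difference lay between -0.71 for Bhlha15 and 0.29 for Nr5a2, with adjusted p values from 0.372 to 0.991. For Ptf1a it was 0.02 with an SE of 0.54, so a difference of 1 in either direction lies within 2 SE.

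In KMC pancreata, all 7 factors had lower means than in KC, but none had an adjusted p of 0.05 or less in edgeR. DESeq2 called Ptf1a, Nr5a2 and Gata4, but it called 2130 genes in all, 596 of them lower in KMC. In edgeR the median log2 fold change was -1.23 over the factors and 0.03 over all 15733 genes tested, of which 3 (0.0191%) passed. For 4 of 7 factors the unadjusted p was under 0.05 with a lower level, against 9.48% of all genes. Both KMC libraries lay below both KC libraries for 5 of 7 factors, against 30.9% of all genes. All 7 differences stayed negative when any 1 of the 4 libraries was left out, but their size rested on the KMC libraries. Without KMC 2 the log2 fold changes of Ptf1a, Rbpjl, Bhlha15, Nr5a2, Gata4, Gata6 and Foxa2 were -1.37, -0.30, -0.61, -0.80, -0.87, -0.05 and -0.56. Without KMC 1 they were -2.53, -1.71, -2.29, -1.95, -2.05, -0.58 and -1.18. Those of Rbpjl and Gata6 also moved without KC 2, to -0.32 and -0.08, and that of Gata6 without KC 1, to -0.49.

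Ptf1a showed the largest difference. It was at 8.48 and 3.87 CPM in KMC 1 and 2 and at 27.5 and 17.2 CPM in KC 1 and 2, so that both KMC values were below both KC values. The means were 6.17 ± 3.26 and 22.4 ± 7.27 (SD, n = 2 each), and the log2 fold change was -1.86 (SE 0.47, adjusted p = 0.0961). DESeq2 gave -1.84 with an adjusted p of 0.00468, and the fit over all 9 libraries gave an adjusted p of 0.0494. That fit called 3230 genes in all, 972 of them lower in KMC.

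Nr5a2 and Gata4 came next. Nr5a2 was at 43.0 and 19.7 CPM in KMC and at 78.5 and 72.9 CPM in KC (-1.27, SE 0.45, adjusted p = 0.149). Gata4 was at 37.6 and 17.0 CPM in KMC and at 83.0 and 56.9 CPM in KC (-1.36, SE 0.47, adjusted p = 0.146). In both genes KMC 2 had the lowest level of the 4 libraries. Both passed with DESeq2 (adjusted p = 0.0499 and 0.0421) and in the fit over all 9 libraries (0.0294 and 0.0302).

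Bhlha15 was at 267 and 84.8 CPM in KMC and at 474 and 353 CPM in KC (-1.23, SE 0.68, adjusted p = 0.281), again without overlap. Foxa2 was at 16.5 and 10.9 CPM in KMC and at 27.5 and 21.9 CPM in KC (-0.85, SE 0.35, adjusted p = 0.181), and passed only in the fit over all 9 libraries (0.0367). Rbpjl overlapped, at 194 and 74.2 CPM in KMC and 167 and 314 CPM in KC (-0.84, SE 0.63, adjusted p = 0.417). Gata6 differed least, at 16.6 and 11.7 CPM in KMC and 15.0 and 19.7 CPM in KC (-0.29, SE 0.34, adjusted p = 0.606).

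The direction of these differences depended on what the counts were scaled to. Enzymes took 49.6 and 24.9% of counts in KMC and 69.5 and 60.7% in KC, a difference of -27.9 percentage points (exact permutation test, two-sided, p = 0.333, the smallest that 2 against 2 allows). Without KMC 2 it was -15.5 points and without KMC 1 it was -40.3. Both KC shares were above those of all other libraries. With library size alone, the median of all genes moved to 1.47 on the log2 scale, and Rbpjl, Bhlha15, Nr5a2, Gata6 and Foxa2 came out higher in KMC, by 0.33, 0.05, 0.04, 1.05 and 0.55. Relative to that median, all 7 factors stayed below the typical gene. With the enzymes left out of the library size, Ptf1a, Rbpjl, Bhlha15, Nr5a2, Gata4 and Foxa2 were lower in KMC and Gata6 was higher by 0.27, with a median of all genes of 0.62.

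Taken per 1000000 enzyme counts, all 7 factors were higher in KMC than in KC, and the groups did not overlap for 6 of 7, while 94.6% of all genes were higher without overlap on this scale. Gata6 was at 41.6 and 102 in KMC and at 10.5 and 24.7 in KC, Bhlha15 at 669 and 739 in KMC and at 332 and 443 in KC, and Rbpjl at 486 and 647 in KMC and at 117 and 394 in KC. Ptf1a overlapped, at 21.2 and 33.7 in KMC and at 19.2 and 21.6 in KC. The median log2 difference of the factors on this scale was 0.93 and that of all genes 2.53, so the factors lay between the enzymes and the typical gene.

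**Figure D4:**
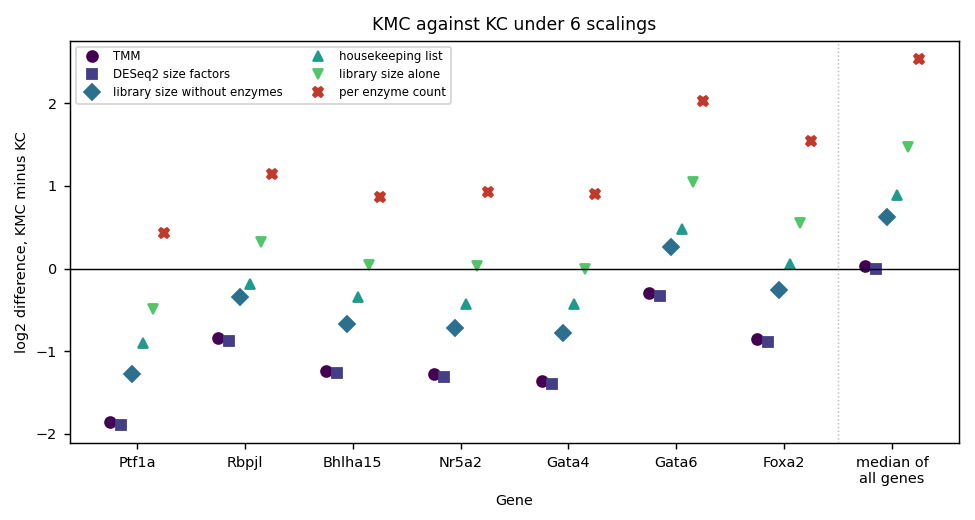
Log2 difference between KMC and KC (vertical axis) of each factor and of the median of all genes tested, under 5 scalings of the counts and per enzyme count, with 2 libraries per group. Ptf1a moves from -1.86 with TMM to 0.43 per enzyme count, and the median of all genes from 0.03 to 2.53.

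Of the 30 enzyme genes, 29 had lower means in KMC, none past an adjusted p of 0.05 in edgeR and 5 with an unadjusted p under 0.05, with a median log2 fold change of -2.02. Ctrb1 was at 52363 ± 35190 CPM in KMC and 204317 ± 65035 in KC, Cela1 at 15749 ± 14856 and 96695 ± 55887, and Cel at 24812 ± 20814 and 79189 ± 2992 (SD, n = 2 each, adjusted p = 0.710, 0.531 and 0.676). Leukocyte genes came to 727 and 1918 per 1000000 non-enzyme counts in KMC and 91.3 and 180 in KC, and fibroblast genes to 6161 and 22690 in KMC and 847 and 2068 in KC, higher without overlap. Ductal genes came to 2175 and 4084 in KMC and 1590 and 1519 in KC, also higher without overlap. The mesothelial sum was higher without overlap too, at 84.7 and 108 in KMC and 49.1 and 77.5 in KC. With TMM, however, 3 of the 6 mesothelial genes were higher and 3 lower, against 9 and 3 of the 12 ductal genes. On the non-enzyme scale the typical gene was itself higher in KMC, by 0.62 in log2, so the mesothelial sum alone does not show a rise of this list. The sum of the gut genes was lower without overlap, at 1744 and 753 in KMC and 7754 and 2651 in KC. Gene by gene, however, 5 of the 8 tested were higher and 3 lower in KMC (2 and 1 at an unadjusted p under 0.05, edgeR). Tff2, a secreted stomach peptide, was at 451 ± 308 CPM in KMC and 3091 ± 2473 in KC (adjusted p = 0.173). Islet genes overlapped, at 3695 and 2232 in KMC and 4922 and 3101 in KC. KMC 2, with the lowest TMM-scaled level of all 7 factors among the 4 libraries, also had the highest leukocyte, fibroblast and ductal sums of them. On the non-enzyme scale of these sums, Gata6 was lowest in KC 1 (23.9, against 33.8 in KMC 2), and the other factors were lowest in KMC 2. The part of these cells in the levels of the factors was not tested.

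On TMM-scaled CPM, the 4 targets of BHLHA15 were lower in both KMC libraries than in both KC libraries, as were 30.9% of all genes. The unadjusted p (edgeR) was under 0.05 for 4 of 4, against 9.48% of all genes with a lower level. None had an adjusted p of 0.05 or less. Unscaled counts overlapped for Rab26 (579 and 357 in KMC, 361 and 730 in KC) and Rab3d (6842 and 6069 in KMC, 6240 and 6699 in KC). Those of Atp2c2 and Gjb1 did not overlap. Atp2c2 was at 6.40 ± 4.23 CPM in KMC and 29.4 ± 18.2 in KC, Gjb1, a gap junction protein, at 21.7 ± 15.2 and 78.1 ± 36.0, and Rab26 at 9.24 ± 7.05 and 26.4 ± 2.6 (SD, n = 2 each, adjusted p = 0.109, 0.132 and 0.151). Of 24 tested genes that work with the factors, 15 were higher and 9 lower in KMC, none past the threshold in edgeR (6 higher and 4 lower at an unadjusted p under 0.05). Rbpj, the partner that RBPJL replaces in PTF1, was at 36.0 ± 13.6 CPM in KMC and 14.5 ± 0.853 in KC (log2 fold change 1.31, SE 0.37, adjusted p = 0.112), whereas Rbpjl had a lower mean in KMC. Foxa3, a relative of Foxa2, was at 10.2 ± 5.12 and 30.9 ± 10.6 CPM (adjusted p = 0.112). Onecut2 had 163 and 2073 counts in KMC and 3 and 25 counts in KC (adjusted p = 0.0821), so its level in KC 1 was at the floor.

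The order of the factors was compared per kilobase of annotated exon, on TMM-scaled CPM. In the controls of MC, Bhlha15 was highest at 162 ± 74.5, followed by Rbpjl at 38.1 ± 4.51, and no library of either overlapped the next. Ptf1a (18.1 ± 3.02), Gata4 (16.6 ± 4.37), Nr5a2 (13.1 ± 1.73) and Foxa2 (12.8 ± 1.18) followed with overlapping ranges, and Gata6 was lowest at 3.15 ± 0.335, below every library of the others (SD, n = 3 each). In MC the ranges of Bhlha15 (41.0 to 132) and Rbpjl (31.1 to 61.3) overlapped, and Gata6 was again lowest. KC and KMC had the same factors at the top, Bhlha15 at 118 ± 24.6 and 50.4 ± 36.9 and Rbpjl at 42.0 ± 18.1 and 23.4 ± 14.8, and the same lowest factor, Gata6 (SD, n = 2 each).

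The HC experiment had another order, in its controls as well as in the libraries labelled HC. Foxa2 (18.4 ± 0.0538) and Gata4 (13.8 ± 0.146) were highest in the controls, without overlap between them, and Foxa2 (21.5 ± 2.15) and Gata4 (20.7 ± 0.445) in HC, with overlap. Bhlha15, Nr5a2, Gata6 and Rbpjl followed with overlapping neighbours, and Ptf1a was lowest in both groups, at 3.25 ± 1.96 in the controls and 2.46 ± 1.11 in HC.

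**Figure D5:**
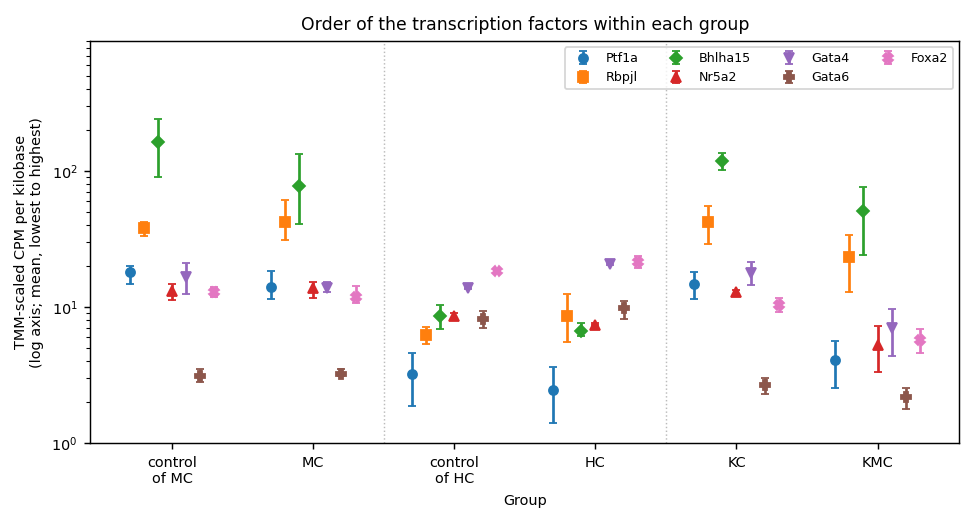
TMM-scaled CPM per kilobase of exon (vertical axis, log scale) of the 7 factors in 6 groups, with the mean as a point and the lowest and highest library as bars, and dotted lines between tables. Bhlha15 and Rbpjl lie at the top and Gata6 at the bottom in the MC, KC and KMC groups and their controls, while Foxa2 and Gata4 lie at the top and Ptf1a at the bottom in both groups of the HC experiment.

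The controls of the HC and MC experiments were set side by side per 1000000 non-enzyme counts, with no test because the tables were made separately. Bhlha15, Rbpjl and Ptf1a were lower in those of the HC experiment. Bhlha15 was at 987 ± 367 in controls of MC and 33.2 ± 9.18 in controls of HC, Rbpjl at 391 ± 40.7 and 39.5 ± 7.41, and Ptf1a at 48.7 ± 4.94 and 5.36 ± 3.17. Nr5a2 was at 137 ± 6.17 and 55.9 ± 3.38, and Gata4 at 114 ± 19.1 and 59.1 ± 1.52. Foxa2 was at 54.4 ± 3.52 and 48.0 ± 0.587, and Gata6, in the opposite order, at 36.7 ± 3.19 and 58.5 ± 12.2 (SD, n = 3 and 2). The enzyme share was 50 ± 7.0% and 7.84 ± 1.28%, and the gut genes came to 607 to 1285 (6 of 12 listed) and 2104 to 3727 per 1000000 non-enzyme counts. Age, library kit, control genotype and the composition of the tissue differed between these experiments and cannot be told apart.

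Pairs of factors varied together to different degrees across the 15 libraries, each taken as log2 CPM minus the mean of its own table. Pearson's r was highest for Foxa2 with Gata4 (0.938), followed by Bhlha15 with Ptf1a and Gata4 with Nr5a2 (0.805 each), and lowest for Gata6 with Ptf1a (0.057). Ptf1a and Rbpjl, the subunits of PTF1, had an r of 0.608. These values describe libraries that share tables, scaling factors and group differences, and have no test.

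Among 13655 genes tested in all 3 tables, the 3 most like Bhlha15 by the same measure were Lztr1, Fn3k and Slc38a5 (r 0.967, 0.965 and 0.964), and those most like Ptf1a were Thap2, Six5 and Cabp2 (0.949, 0.917 and 0.916). Rbpjl had the least close neighbours among these 3 factors, Hist1h1c, Myom3 and Eif4a2 (0.883, 0.870 and 0.865). Nr5a2 was most like Psat1, Fam149a and Tle6 (0.959, 0.949 and 0.947). Gata4 had the closest neighbours of all 7 factors, Slc39a11, Mdh1 and Larp1b (0.989, 0.986 and 0.983). Foxa2 was most like Glt28d2, Sil1 and Msra (0.976, 0.975 and 0.972), and Gata6 most like Slc16a12, Rnf43 and Abcg8 (0.904, 0.888 and 0.865). Some of these r values were lower within a single experiment. Within the HC experiment, r with Nr5a2 was -0.13 for Fam149a and 0.01 for Tle6, r of Bhlha15 with Fn3k was 0.36 and r of Rbpjl with Myom3 was 0.59, and within the MC experiment r of Gata6 with Abcg8 was 0.54. For the remaining 16 genes r was at least 0.711 in each experiment.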

How the data were processed

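RNA-Seq of pancreas was deposited as raw counts per gene in 3 tables. The labels state that the authors pooled RNA of 3 mice per library and prepared the HC, KC and KMC libraries with a KAPA stranded kit and the MC libraries with standard Illumina protocols. The methods state that reads were aligned to GRCm38 with STAR and assigned to GENCODE genes, and the submitters' processing notes list STAR 2.6.1a, HTSeq 0.6.1 and DESeq2. The deposited counts were not normalized. A deposited table of the authors' own comparison, with fold changes and p-values, was not used. No source used here says by what rule the MC table came to list 15175 genes.

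Samples were grouped by the labels. The allele shared by KC and KMC is not reported here. Where nothing states that libraries came from separate litters or days, p-values measure the spread between these pools. Genes were filtered with filterByExpr, scaled by TMM and tested with edgeR 4.0.16 (estimateDisp, glmQLFit with the legacy option, glmQLFTest), under R 4.3.3 and separately for every comparison, with Benjamini-Hochberg adjustment over all genes tested. Genes counted as differentially expressed had an adjusted p no larger than 0.05 and a log2 fold change of 1 or more in either direction. The SE was obtained from the F statistic, as the size of the log2 fold change over the root of F. The fit was tested on simulated counts in which 200 genes had a log2 change of 2, and it recovered 97.5% of them for MC (13724 genes), 96% for HC (18067 genes) and 56% for KMC (15020 genes), with 10, 14 and 13 unchanged genes called. In the simulation, rises and falls were balanced and the TMM factors were left out, so no shift in composition was simulated. Its rates do not tell how often changes as small as those of the factors would be found. The enzyme share was compared by exact permutation. Correlations used SciPy 1.17.1, with all pairings enumerated. Alternatives were DESeq2 1.42.0, other scalings, no filter, a newer edgeR fit, the replicate block, all 9 libraries of 2 tables, and leaving out each library.

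The 7 factors and all gene lists were chosen with earlier results of these data known. Genes named beside the factors were the 3 enzymes with the highest mean CPM, every partner or BHLHA15 target past an adjusted p of 0.05 in a comparison or else the 3 with the smallest p, and the 3 genes most like each factor by r. The genes of the gut list were named, as was Tspan8 of the ductal list, after their values were seen. The Amy2a5, Try and Cela3 families have near-identical copies, and without the 13 genes of such families the enzyme share differed by -7.80, -0.49 and -21.9 percentage points in MC, HC and KMC.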

Additional observations from a re-analysis of the deposited data

How the results depend on the processing

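Under 14 alternatives for MC and HC and 13 for KMC, the factors' differences mostly kept their direction and their side of the threshold. Directions turned in 15 cases, all of values that had not passed. In MC these were Rbpjl without MC replicate 1 (-0.22), Nr5a2 without control replicate 2 (-0.016), Gata6 without MC replicate 2 or control replicate 1 (-0.00479 and -0.022), and Gata4 and Foxa2 with library size alone (0.11 and 0.20). In HC it was Ptf1a without control replicate 1 (0.40, with a range from -0.92 to 0.40 on leaving out each library). In KMC, library size alone turned Rbpjl (0.33), Bhlha15 (0.047), Nr5a2 (0.035), Gata6 (1.05) and Foxa2 (0.55), library size without enzymes turned Gata6 (0.27), and the housekeeping list turned Gata6 (0.48) and Foxa2 (0.054). The enzyme share difference of HC turned to 0.15 and 0.32 percentage points without HC replicate 3 or control replicate 1, and ranged from -1.49 to 0.32 over the libraries left out. The cause was not tested.

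The number of differentially expressed genes over all genes moved far more, from 0 in MC (2038 at an unadjusted p under 0.05), 104 in HC and 3 in KMC (4027 at an unadjusted p under 0.05). DESeq2 called 475, 482 and 2130. Library size alone called 1 in MC and 4714 in KMC, library size without enzymes 51 in HC and 1844 in KMC, the housekeeping list 6 and 1425, no filter 395 and 9, and all 9 libraries in 1 fit 1 and 3230. Leaving out 1 library gave 0 to 718 in MC (718 without control 2, 171 without MC 1), 0 to 379 in HC (379 without HC 1, 3 without HC 3, 0 without any other) and 0 to 2312 in KMC (2312 without KMC 1, 76 without KMC 2, 0 without KC 1 or KC 2). The difference between the MC and HC fold changes was called for 325 genes, and for 165 with library size without enzymes.

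With the replicate block, 0 genes were called in MC, 339 in HC and 2464 in KMC. Same-numbered libraries did not deviate together in every pair (r from -0.297 to 0.296 in MC, 0.170 and 0.189 in HC, 0.051 in KMC), so the numbers were not taken to pair them. In this fit Ptf1a, Nr5a2 and Gata4 passed in KMC (adjusted p = 0.00152, 0.0266 and 0.0157) and Gata4 did not in HC (0.068). Without KMC replicate 1, where KMC 2 alone is assumed to vary like KC, the same 3 factors passed in KMC (0.000770, 0.0275 and 0.0196), and without any other library of that comparison none of them did.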
